A study of Mus musculus with 12 samples.

Results

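The 10 genes described here are regulators of the first blood cells: Tal1, Lmo2, Lyl1 and Ldb1, which act in one protein complex, and Gata1, Gata2, Runx1, Gfi1, Gfi1b and Hhex. They were chosen by name, as every array probe that the scanner files assign to one of these genes, and they make up 10 of the 27548 gene names on the array. In all 14 probes were found, with a pair of probes each for Ldb1, Gata2, Runx1 and Hhex. All 10 genes passed the filter on dim probes and were tested. Their levels were followed over 4 sorted fractions of the mouse embryo at embryonic day 7.5.

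Tal1 and its close relative Lyl1 are basic helix-loop-helix proteins that bind E-box DNA together with E proteins. Lmo2 bridges them to GATA factors and to Ldb1, which joins complexes on distant sites, and the assembly activates genes of blood precursors and red cells. Mesoderm cells that carry the receptor Flk1 are known to give rise to both blood and vessels at this stage, and Tal1 is needed for that step.

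All cells came from CD-1 embryos, about 300 from 25 litters, pooled and stained with antibodies to 2 surface proteins, Endoglin (gene Eng, a co-receptor for TGF-beta family ligands) and Flk1 (gene Kdr, a receptor for vascular endothelial growth factor). Flow sorting gave 4 fractions: cells with neither protein (Eng-Flk1-), with Flk1 alone (Eng-Flk1+), with both (Eng+Flk1+) and with Endoglin alone (Eng+Flk1-). No gene was altered and no agent was given in any group. Each fraction was sorted 3 times, 3000 cells a time, and each sample was amplified by a global PCR method and hybridised to its own 1-colour Agilent array (n = 3 per fraction, 12 arrays). Since a single pool of embryos fed all samples, p-values measure only the spread between sorted samples, which may be technical.

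A level is the log2 signal of a probe minus the 75th percentile of its array, so that 0 is that percentile, and a difference of 1 is a doubling of signal. The arrays of Eng-Flk1- were the dimmest, with 66.5% to 76.3% of spots well above background against 80.2% to 83.3% on the other 9 arrays. They also scattered most, with a median SD over genes of 1.01 against 0.564 to 0.666 in the other fractions. Eng-Flk1- replicate 3 received the lowest weight of all arrays when limma estimated array quality (0.232). Kdr, which encodes one sorting marker, was higher in the Flk1 positive fractions by a fitted 7.16 ± 0.68 (SE, limma adjusted p = 0.000914), a size that is not exact because Kdr was well above background on only 1 of 3 Eng-Flk1- and 2 of 3 Eng+Flk1- arrays. In contrast, Eng was higher in the Endoglin positive fractions by 1.29 ± 0.49 (adjusted p = 0.431). The arrays lay on 3 slides. Slide 1 held the 3 Eng-Flk1- arrays with Eng-Flk1+ replicate 1, slide 2 held the remaining Eng-Flk1+ arrays with Eng+Flk1+ replicates 1 and 2, and slide 3 held Eng+Flk1+ replicate 3 with the 3 Eng+Flk1- arrays. Slide and fraction therefore overlap in large part, and values within slides are given beside the results.

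Probe sequences are shown for 3 genes, with the stretch of genome that each covers. Which isoform each probe reads was not determined. The Lmo2 probe (mm8, chr2:103777023-103781736, plus strand) has 60 bases but covers 4714 bases of genome, so it is read only from spliced RNA. The brighter Runx1 probe (mm8, chr16:92502617-92533069, minus strand) covers 30453 bases in the same way. The brighter Hhex probe (mm8, chr19:37502375-37502434, plus strand) lies in the coding part of the homeobox, the DNA-binding domain. No part is capitalised.
Lmo2 probe: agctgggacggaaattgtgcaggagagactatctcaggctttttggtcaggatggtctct
Runx1 probe: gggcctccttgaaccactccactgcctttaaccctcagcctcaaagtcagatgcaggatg
Hhex probe: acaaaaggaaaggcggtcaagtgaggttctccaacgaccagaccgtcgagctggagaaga

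Promoters are shown for the 3 genes that passed the test for a higher level in Flk1 positive cells. RefSeq promoter windows (GRCm38.p6, 250 bases before to 50 after a start site, 300 in all) were found for 9 of the 10 genes, 15 windows together, all but Lmo2. They were searched on both strands for the GATA sites AGATAA and TGATAA, for CTG followed by GATA with 8 or 9 bases between, as the Tal1 complex binds them (these pairs can overlap a GATA site), for the Ets cores CAGGAA and CCGGAA, the E-boxes CAGATG and CAGGTG, and the Runx site TGTGGT. The motifs are common: among 32851 windows, 11.2% held AGATAA, 9.05% TGATAA, 2.28% and 2.51% the spaced pair with 8 and with 9 bases between, 30.6% CAGGAA, 14.9% CCGGAA, 17.2% CAGATG, 20.2% CAGGTG and 16.8% TGTGGT. Each line runs 5′ to 3′ on the gene's strand, from 250 bases before to 30 after the start site, with matches in capitals. The Tal1 window is chr4:115056176-115056455 (plus strand), the Hhex window chr19:37434591-37434870 (plus strand) and the Gfi1 window chr5:107724314-107724593 (minus strand). Tal1 and Gfi1 each have another window, and those printed were chosen after the matches were seen.
Tal1 promoter: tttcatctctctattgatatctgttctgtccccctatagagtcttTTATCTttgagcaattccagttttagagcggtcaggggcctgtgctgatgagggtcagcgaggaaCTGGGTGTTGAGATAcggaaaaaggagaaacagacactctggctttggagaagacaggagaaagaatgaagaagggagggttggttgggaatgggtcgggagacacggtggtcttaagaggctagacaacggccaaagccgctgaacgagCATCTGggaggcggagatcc
Hhex promoter: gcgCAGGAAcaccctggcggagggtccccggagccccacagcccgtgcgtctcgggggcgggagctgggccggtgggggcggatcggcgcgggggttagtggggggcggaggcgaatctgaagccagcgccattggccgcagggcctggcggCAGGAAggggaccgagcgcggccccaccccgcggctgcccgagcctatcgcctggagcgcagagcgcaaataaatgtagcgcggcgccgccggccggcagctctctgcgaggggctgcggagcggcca
Gfi1 promoter: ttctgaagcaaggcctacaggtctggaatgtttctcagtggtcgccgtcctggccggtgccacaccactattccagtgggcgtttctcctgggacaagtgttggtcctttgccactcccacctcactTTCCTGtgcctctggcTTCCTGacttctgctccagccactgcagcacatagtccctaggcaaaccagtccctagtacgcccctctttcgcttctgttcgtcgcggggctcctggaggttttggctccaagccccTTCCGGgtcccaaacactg

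The Tal1 window held AGATAA in reverse from position -205, the pair with 8 bases between from -140, and CAGATG in reverse from 10, counted from 0 at the start site. The other pair, with 9 bases between, was found in the Gfi1b window. The Hhex window held CAGGAA from -247 and from -98. The Gfi1 window held CAGGAA in reverse from -123 and from -107 and CCGGAA in reverse from 11. A match describes the letters and is not evidence of binding.

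**Figure D1:**
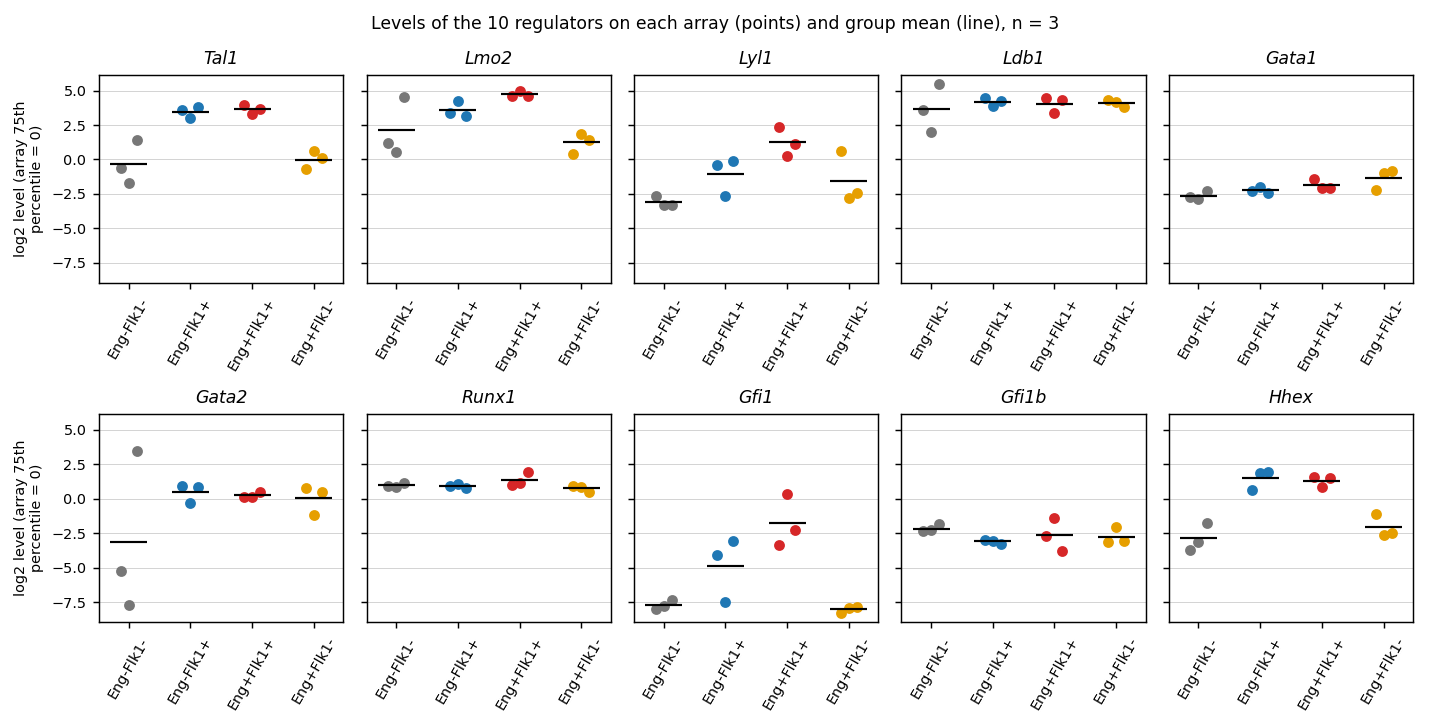
Log2 level of the brighter probe of each gene (y axis, 75th percentile of the array at 0) in the 4 fractions (x axis). Points are single arrays, in the order of replicates, and lines are means of 3 arrays. Tal1 and Hhex separate all 6 Flk1 positive from all 6 Flk1 negative arrays, Gfi1 is lowest without Flk1, Runx1 spans only 1.44, and Gata2 is scattered among the Eng-Flk1- arrays.

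Over both Endoglin classes, 3 of the 10 genes rose with Flk1: Tal1, Hhex and Gfi1 (limma, adjusted p under 0.05 over 22724 genes). Gfi1 passed the filter on dim probes only through Eng+Flk1+, the fraction where it was highest. Its calls in this and other comparisons are therefore described and not read as support. Among all genes tested, 1.22% were called in that comparison, 0.986% as higher. Tal1 and Hhex, 2 of 10, also had no overlap between all Flk1 positive and all negative arrays (1.08% of all genes, 0.607% with Flk1 higher). The median difference of the 10 was 2.16, beside -0.09 for all genes, and 8 of the 10 were positive. Among cells without Endoglin, Tal1 and Hhex rose with Flk1 (2 of 10, beside 1.91% of all genes, 1.64% as higher). Among cells with Endoglin, 0 of 10 were called by limma (0.295% of all genes). Still, 5 had an unadjusted p under 0.05 (1499 of 22724 genes): Tal1, Hhex, Gfi1, Lmo2 and Lyl1. The arrays of 5 did not overlap there, those of Tal1, Lmo2, Runx1, Gfi1 and Hhex (15.2% of all genes). The model gave each gene 1 spread shared by all 4 fractions, so the scatter of the Eng-Flk1- arrays also entered this comparison. A fit without the 3 Eng-Flk1- arrays called 3 of 10 among cells with Endoglin (129 of 22627 genes). The calls with and without Endoglin therefore do not show that the Flk1 difference depends on Endoglin. Between the cells with both proteins and those with neither, 4 rose: Tal1, Hhex, Gfi1 and Lyl1 (2.36% of all genes, 1.97% as higher). Arrays of 6 did not overlap, these 4 with Lmo2 and Gata1 (18.1% of all genes). These comparisons share arrays and are not independent. A limma fit that took slides as blocks called 0 of the 10 in each comparison, and of all genes 20 in the average Flk1 comparison. In that fit the average Flk1 differences of the 10 kept their sign. An unadjusted p under 0.05 was found for 5 of them (Tal1, Hhex, Gfi1, Lyl1 and Lmo2), beside 1689 of 22724 genes.

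Tal1, the helix-loop-helix core of the complex, was read by 1 probe (mm8, chr4:114569550-114569610). Its level was -0.59, -1.74 and 1.39 in Eng-Flk1- and -0.72, 0.60 and 0.08 in Eng+Flk1-. In the Flk1 positive fractions it was 3.56, 2.99 and 3.83 without Endoglin and 3.95, 3.32 and 3.69 with it. All 6 Flk1 positive arrays lay above all 6 negative ones. Tal1 was higher by 3.78 ± 0.71 (SE) among Endoglin negative cells (limma adjusted p = 0.0256) and by 3.67 ± 0.71 among Endoglin positive cells (adjusted p = 0.0833), and the mean of both was 3.72 ± 0.50 (adjusted p = 0.00591). In bulk samples, more cells that express Tal1 and more Tal1 RNA per cell cannot be told apart.

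The order of Tal1 levels was Eng+Flk1+, Eng-Flk1+, Eng+Flk1-, Eng-Flk1-. The upper pair differed by 0.19 ± 0.71 and the lower pair by 0.30 ± 0.71, both within overlapping arrays. Endoglin status moved Tal1 by 0.25 ± 0.50 on average (95% interval -0.87 to 1.37). Within slide 1, the single Eng-Flk1+ array exceeded the Eng-Flk1- mean by 3.88, and within slide 3 the single Eng+Flk1+ array exceeded the Eng+Flk1- mean by 3.70. With the slide as a block the average was 3.79 ± 0.80 and no longer called (adjusted p = 0.175). Leaving out Eng-Flk1- replicate 1, or any one of the Eng-Flk1+ arrays, took the difference among Endoglin negative cells over the threshold (adjusted p = 0.0521 to 0.111), as did the slide block (0.372), median scaling (0.0662) and the authors' deposited table (0.0666). Among Endoglin positive cells the difference was called without Eng-Flk1- replicate 2 (adjusted p = 0.0392) or replicate 3 (0.0153). Between both and neither protein Tal1 differed by 3.97 ± 0.71 (adjusted p = 0.0181), and lost the call in 5 of 24 alternative fits: without Eng+Flk1+ replicate 1 (0.0684) or replicate 3 (0.0629), under median scaling (0.0647), with the authors' deposited table (0.0635) and with the slide block (0.787).

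Lyl1, the relative of Tal1, was read by 1 probe (mm8, chr8:87594737-87594796). Its level was -2.62, -3.28 and -3.27 in Eng-Flk1-, the lowest fraction, and -0.37, -2.68 and -0.07 in Eng-Flk1+. It was 2.35, 0.27 and 1.12 in Eng+Flk1+ and 0.61, -2.79 and -2.40 in Eng+Flk1-. Every array with both proteins lay above those of the Endoglin negative fractions, whereas Eng+Flk1- replicate 1 reached into their range. Cells with both proteins exceeded those with neither by 4.31 ± 0.98 (limma adjusted p = 0.0497), and this call, at the edge of the threshold, was kept in 6 of 24 alternative fits (adjusted p = 0.0221 to 0.794). It was lost without any one of the Eng-Flk1- or Eng+Flk1+ arrays, Eng-Flk1+ replicates 1 or 3, or Eng+Flk1- replicates 2 or 3.

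Unlike Tal1, Lyl1 had its largest step between neighbours at the Endoglin gate among Flk1 positive cells, 2.29 ± 0.98 (unadjusted p = 0.0402, limma adjusted p = 0.999), which was not called. On slide 2, which holds arrays of both groups, that difference was 2.69, and the 2 arrays of each did not overlap. Among Endoglin positive cells, between fractions that are not neighbours in the order, Lyl1 differed more, by 2.77 ± 0.98 with Flk1. The arrays overlapped, and this was not called either (limma unadjusted p = 0.0168, adjusted p = 0.548). The average Flk1 difference of Lyl1 was 2.40 ± 0.69 (adjusted p = 0.168), and within slides 1 and 3 it was 2.69 and 2.65. The average Endoglin difference was 1.91 ± 0.69 (adjusted p = 0.405).

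Lmo2, the bridge of the complex, stood at 3.36, 4.27 and 3.17 in Eng-Flk1+ and at 4.63, 4.93 and 4.62 in Eng+Flk1+. In Eng+Flk1- it was 0.43, 1.88 and 1.43, below every Flk1 positive array. In Eng-Flk1- it was 1.21, 0.55 and 4.56, so replicate 3 alone lay among the Flk1 positive arrays. The average Flk1 difference was 2.49 ± 0.63 and was not called (limma adjusted p = 0.111). Without that array it was 3.10 ± 0.36 and called (adjusted p = 0.00449), as it was under quantile normalization (2.91, adjusted p = 0.0213) and array weights (2.62, adjusted p = 0.0270). With the slide as a block it was 2.32 ± 1.00 (adjusted p = 0.663).

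Among Endoglin positive cells Lmo2 differed by 3.48 ± 0.90 with Flk1 (adjusted p = 0.232) and within slide 3 by 3.38. Among Flk1 positive cells all Eng+Flk1+ arrays exceeded all Eng-Flk1+ arrays, by 1.13 ± 0.90 on average (adjusted p = 0.999). On slide 2 that difference was 1.06, again without overlap. Lmo2 and Lyl1 were the only members whose Flk1 positive arrays parted by Endoglin without overlap, 2 of 10 beside 13.8% of all genes. In that comparison 0 of 10 were called by limma (0.0264% of all genes), with Lyl1 and Gfi1 at an unadjusted p under 0.05 (1087 of 22724 genes).

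Ldb1, the partner that joins complexes on DNA, was read by 2 probes (mm8, chr19:46086431-46086490 and chr19:46086308-46086367). By the brighter one its level was 4.44, 3.86 and 4.26 in Eng-Flk1+, 4.45, 3.36 and 4.34 in Eng+Flk1+, and 4.32, 4.18 and 3.82 in Eng+Flk1-. In Eng-Flk1- it was 3.61, 2.00 and 5.48, which span the values of all other arrays. Averaged over Endoglin, the Flk1 difference was 0.22 ± 0.52 (95% interval -0.94 to 1.38), and its sign turned under median scaling (-0.11) and with the authors' deposited table (-0.10). By the other probe it was 0.68 ± 0.45 (limma adjusted p = 0.583). The probes ran together over the 9 arrays outside Eng-Flk1- (r = 0.782) but not over all 12 (r = -0.298): Eng-Flk1- replicate 3 was the highest of 12 arrays by one probe and the lowest by the other, at 0.38.

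Gata2, a factor of early blood precursors, was read by 2 probes that lie close together (mm8, chr6:88172009-88172068 and chr6:88172482-88172541). By the brighter probe its level was 0.95, -0.33 and 0.85 in Eng-Flk1+, 0.11, 0.15 and 0.49 in Eng+Flk1+, and 0.78, -1.18 and 0.52 in Eng+Flk1-. In Eng-Flk1- it was -5.26, -7.71 and 3.49, the lowest pair and the highest of all 12 arrays. By the other probe the same arrays stood at 0.61, -4.91 and -7.19, so the probes contradict each other on replicates 1 and 3. Over 12 arrays their r was 0.05.

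The average Flk1 difference of Gata2 was 1.93 ± 1.53 by the brighter probe (limma adjusted p = 0.649) and 3.12 ± 1.09 by the other (adjusted p = 0.243). Without Eng-Flk1- replicate 3 the brighter probe was called in the average Flk1 comparison (3.59 ± 0.55, adjusted p = 0.0139), among Endoglin negative cells (6.97, adjusted p = 0.00413) and between the fractions with both and neither protein (6.74, adjusted p = 0.00388). These sizes are not exact, since 1 of the 2 remaining Eng-Flk1- arrays (-7.71) was not well above background. The brighter probe was then also called for Endoglin among Flk1 negative cells (6.53, adjusted p = 0.00596), the average of Endoglin (3.14, adjusted p = 0.0462) and the interaction (-6.76, adjusted p = 0.0401). All these calls rest on the brighter probe, and the other probe contradicts it on Eng-Flk1- replicate 1, which was kept. There the brighter probe read -5.26 and the other 0.61, within the range of the other fractions by that other probe. Gata2 is also made by trophoblast, whose markers (11 of 12 on the array) had a mean level of 0.73 to 0.92 in Eng+Flk1- against -2.23 to -1.13 elsewhere. The list was split: Hand1, Elf5, Eomes, Esrrb and Krt8 were higher on the Eng+Flk1- arrays than on every other array. Prl3d1, Ascl2, Tpbpa, Cdx2, Gata3 and Tfap2c overlapped other fractions. Gata2 did not stand out in Eng+Flk1- by either probe, and the part of trophoblast in its level was not tested.

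Gata1, the GATA factor of red cells and megakaryocytes, was read by 10 spots of 1 probe (mm8, chrX:7116682-7116741), whose SD within an array was 0.0734 to 0.164. Its level was -2.73, -2.86 and -2.30 in Eng-Flk1-, -2.28, -1.97 and -2.43 in Eng-Flk1+, -1.42, -2.05 and -2.06 in Eng+Flk1+, and -2.22, -0.96 and -0.84 in Eng+Flk1-. It was thus highest with Endoglin alone, with every neighbouring pair in the order overlapping. With Flk1, Gata1 differed on average by -0.05 ± 0.32 (95% interval -0.77 to 0.67), with a sign that depended on single arrays. Among Flk1 negative cells the groups parted by Endoglin without overlap, by 1.29 ± 0.46 (unadjusted p = 0.0178, limma adjusted p = 0.234). Gata1 was the only one of 10 to do so there (19% of all genes). By limma 0 of 10 were called (1.46% of all genes), with Gata1 alone at an unadjusted p under 0.05 (3268 of 22724 genes).

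Runx1, needed for the step from vessel wall to blood cell, was flat by its brighter probe. Its level was 0.90, 0.86 and 1.14 in Eng-Flk1-, 0.91, 1.04 and 0.80 in Eng-Flk1+, 1.02, 1.17 and 1.94 in Eng+Flk1+, and 0.92, 0.83 and 0.50 in Eng+Flk1-. The range over 12 arrays was 1.44, and 6.67% of the genes tested had a smaller one. With Flk1, Runx1 differed on average by 0.29 ± 0.27 (95% interval -0.31 to 0.88), and by -0.038 under median scaling and -0.029 with the authors' deposited table. Eng+Flk1+ replicate 3 was the highest array, and all Eng+Flk1+ arrays exceeded all Eng+Flk1- arrays, by 0.63 ± 0.38 (limma adjusted p = 0.974) and by 1.19 within slide 3. The other probe (mm8, chr16:92493027-92493086) was well above background on 9 of 12 arrays and had its 2 highest values, -0.71 and -2.86, on Eng+Flk1+ replicates 2 and 3. Its average Flk1 difference was 1.33 ± 0.91 (adjusted p = 0.598).

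Gfi1, a zinc finger repressor that acts below Runx1 in the emergence of blood, was dim (mm8, chr5:107957135-107957194). It was well above background on 0 of the 6 Flk1 negative arrays, on 2 of 3 Eng-Flk1+ arrays and on all 3 Eng+Flk1+ arrays. Its level was -7.98, -7.78 and -7.33 in Eng-Flk1- and -8.28, -7.90 and -7.85 in Eng+Flk1-, values that are only bounds. It was -4.11, -7.51 and -3.07 in Eng-Flk1+, where replicate 2 fell within the range of the negative arrays, and -3.34, 0.35 and -2.28 in Eng+Flk1+.

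Set against the dimmest probes well above background, Gfi1 was at least 14.02-fold higher in Eng+Flk1+ than in Eng-Flk1- (measured means -1.76 and -7.70). The bound itself was not tested. The limma call belongs to the fitted difference of 5.94 ± 1.12 (adjusted p = 0.0222), which uses values below background, and it is not read as support. The 14.02-fold bound rests in large part on Eng+Flk1+ replicate 2. Without that array it was 6.76-fold and the call was lost (adjusted p = 0.0634), and without Eng+Flk1+ replicate 1 it was 24.3-fold. Bounds were computed with the scanner's background subtraction only, not under normexp. The call was also lost without Eng+Flk1+ replicate 3 (0.0612) and under normexp, where the fitted difference was 1.39 on the log2 scale (0.309). Gfi1 was at least 19.99-fold higher than in Eng+Flk1-, where the limma test of the fitted difference (6.25 ± 1.12) missed the threshold (adjusted p = 0.0570). That bound was 9.63-fold without Eng+Flk1+ replicate 2 and 34.6-fold without replicate 1, and under normexp the fitted difference was 2.06 (adjusted p = 0.325). The average Flk1 difference as fitted was 4.52 ± 0.79 (adjusted p = 0.0210), and within slides it was 3.58 (slide 1) and 5.73 (slide 3). The call was lost with the slide as a block (4.66 ± 1.21, adjusted p = 0.313), with normexp background correction (0.95, adjusted p = 0.400), and without Eng-Flk1+ replicate 1 (adjusted p = 0.0642), Eng-Flk1+ replicate 3 (0.0528) or Eng+Flk1- replicate 1 (0.0574). Among Flk1 positive cells Endoglin went with a difference of 3.14 ± 1.12 (unadjusted p = 0.0180, adjusted p = 0.843), which was not called, and whether the Flk1 difference itself differed between the Endoglin classes was tested by the interaction, 3.45 ± 1.59 (adjusted p = 0.478).

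Gfi1b, the paralog of Gfi1 that acts in red cells and megakaryocytes, was read by 1 probe (mm8, chr2:28431471-28431530). Its level was -2.37, -2.25 and -1.86 in Eng-Flk1-, -2.99, -3.05 and -3.26 in Eng-Flk1+, -2.73, -1.39 and -3.81 in Eng+Flk1+, and -3.12, -2.06 and -3.09 in Eng+Flk1-. It was the one member to part by Flk1 in the other direction among Endoglin negative cells, where all Eng-Flk1+ arrays lay below all Eng-Flk1- arrays, by -0.94 ± 0.59 (limma adjusted p = 0.420). Without overlap there stood 3 of 10 members (Tal1, Hhex and Gfi1b), beside 22.1% of all genes. With Flk1, Gfi1b differed on average by -0.41 ± 0.42 (95% interval -1.33 to 0.51).

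Hhex, a homeobox repressor of early endothelium, blood and anterior endoderm, behaved most like Tal1. Its level was -3.72, -3.11 and -1.77 in Eng-Flk1- and -1.14, -2.61 and -2.47 in Eng+Flk1-. In the Flk1 positive fractions it was 0.64, 1.85 and 1.92 without Endoglin and 1.56, 0.86 and 1.49 with it. All 6 Flk1 positive arrays exceeded all 6 negative ones. Hhex was higher by 4.34 ± 0.63 among Endoglin negative cells (limma adjusted p = 0.00806), by 3.37 ± 0.63 among Endoglin positive cells (adjusted p = 0.0645) and by 3.86 ± 0.45 on average (adjusted p = 0.00258).

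Between the Flk1 positive fractions Hhex differed by -0.17 ± 0.63 (95% interval -1.56 to 1.22), and on slide 2 by -0.68, without overlap. Within slide 1 the Flk1 difference was 3.50 and within slide 3 it was 3.56. With the slide as a block the average was 3.53 ± 0.64 and the call was lost (adjusted p = 0.115). By the other probe (mm8, chr19:37505623-37505682) the average was 2.68 ± 0.64 (adjusted p = 0.0692). Anterior endoderm, another known site of Hhex, is marked by 8 genes whose mean level was -1.99 to -1.34 in Eng-Flk1-, -3.45 to -1.95 in Eng-Flk1+, -3.55 to -3.49 in Eng+Flk1+ and -4.32 to -4.08 in Eng+Flk1-. The 8 genes did not run together. Cer1 was above background on no array of either Endoglin positive fraction, whereas Lefty1 was above it on every array. Dkk1 stood at 0.05 to 1.39 in Eng-Flk1+, where Hhex was high. The 12 visceral endoderm markers averaged 0.42 to 1.29 in Eng-Flk1- and -2.66 to -1.46 elsewhere. Both lists, which share Foxa2 and Sox17, were thus highest in Eng-Flk1-, where Hhex was low. The anterior endoderm list was lowest in Eng+Flk1-, where Hhex was low too. Their part in the Hhex result was not tested.

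**Figure D2:**
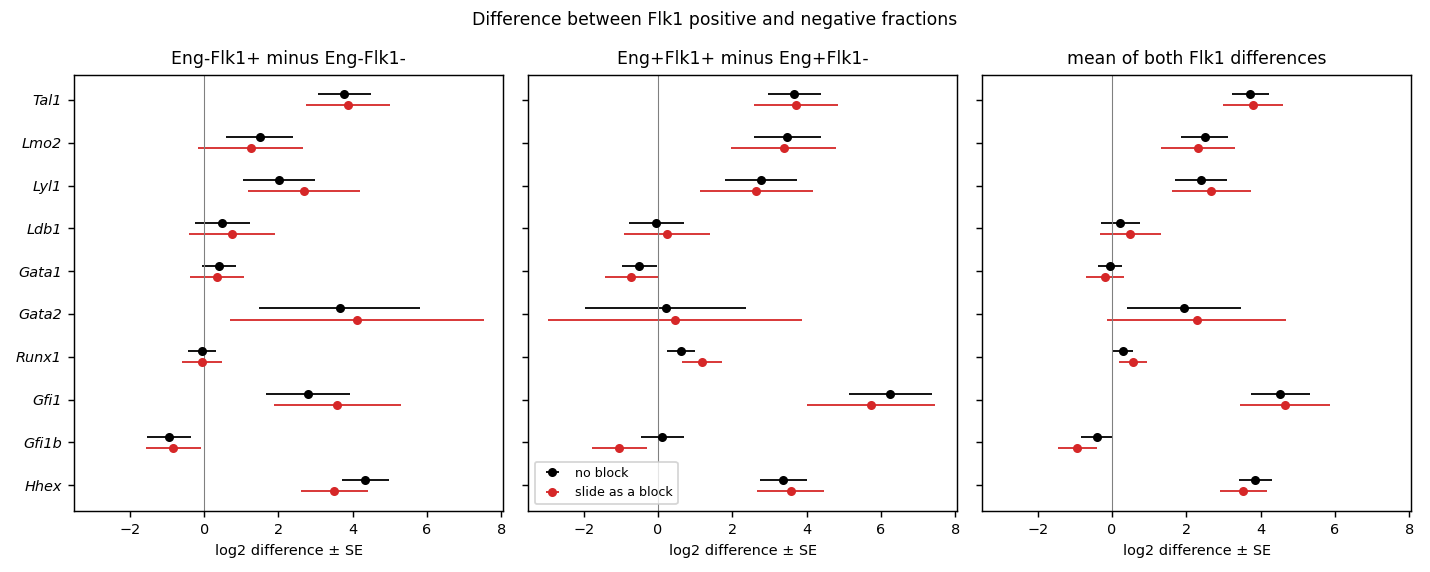
Log2 difference between Flk1 positive and negative fractions (x axis) for the 10 genes, without Endoglin (left), with Endoglin (middle) and averaged (right). Points are limma estimates and bars are SE, black without a block and red with the slide as a block. Tal1 (3.72 and 3.79), Hhex (3.86 and 3.53) and Gfi1 (4.52 and 4.66) keep their averages with wider bars.

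**Figure D3:**
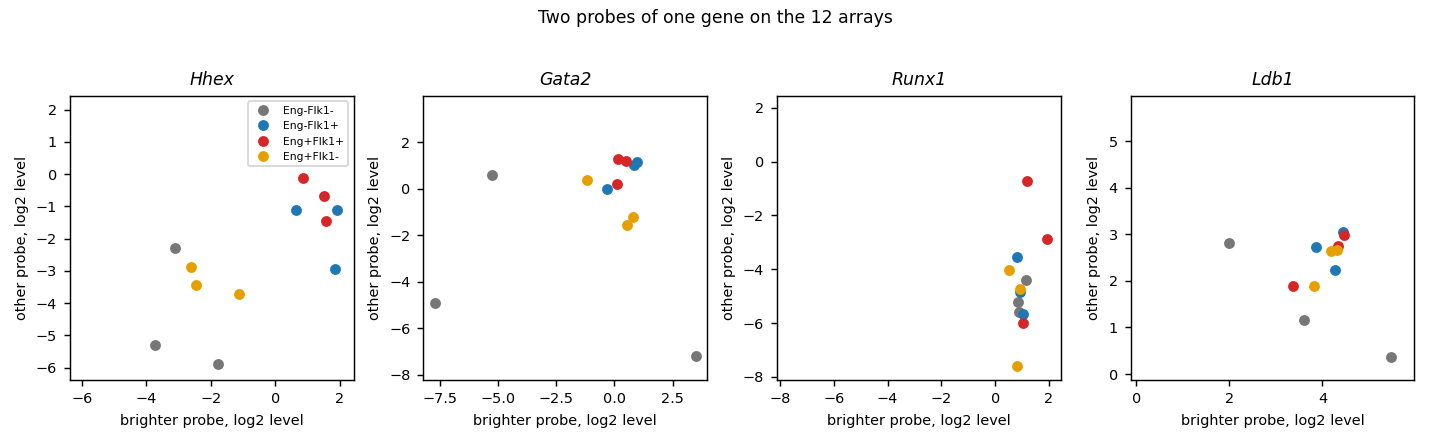
Log2 level of the brighter probe (x axis) against the other probe (y axis) of the 4 genes with a pair of probes, 1 point for each of 12 arrays, coloured by fraction. The grey Eng-Flk1- points of Gata2 and Ldb1 lie far from the rest, the Hhex points rise together (r = 0.685), and the Runx1 points spread along 1 probe only.

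The Endoglin gate gave 0 limma calls among the 10 genes on average (0.29% of all genes), and 0 of 10 parted without overlap (0.449% of all genes). Lyl1 and Gata1 had an unadjusted p under 0.05 there (2014 of 22724 genes). Between the fractions with a single marker, 0 of 10 were called by limma (0.101% of all genes). Tal1, Hhex, Gfi1 and Lmo2 had an unadjusted p under 0.05 (1221 of 22724 genes), all 4 higher with Flk1 without overlap (15.7% of all genes). The interaction was called in 0 of 10 (0.273% of all genes), and none had an unadjusted p under 0.05 (2394 of 22724 genes).

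Levels of the members were compared over the 12 arrays as a description, since all points share slides and a pool. Tal1 ran closest to Hhex (r = 0.913) and Lmo2 (r = 0.876), then Gfi1 (r = 0.787) and Lyl1 (r = 0.609). Among 17439 named genes above background on all arrays, the closest to Tal1 were Arap3 (r = 0.948), Rin2 (0.947) and Arhgef15 (0.925), which regulate small GTPases. The closest to Hhex were Cap2 (r = 0.964), Arhgef15 and Rin2. Myo7a (r = 0.926), Arhgap25 and Tmem204 were closest to Gfi1, Exoc3l2 (r = 0.924), Gpr149 and Pkd1 to Lyl1, and Emilin1 (r = 0.927), Hoxb2 and Fn1 to Lmo2. For the other 5 members the highest r ran from 0.886 (Gata1 with Oxct2a) to 0.964 (Gata2 with Ubxn2a).

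The other genes of the pathway were taken as 4 lists and read in the average Flk1 comparison. Of 18 partners and cofactors of the complex (E proteins, Ssbp and Cbfa2t factors, Id inhibitors and others), 0 were called by limma, 3 had an unadjusted p under 0.05 (Id2, Cbfa2t3 and Id1), and the median was -0.05. Of all 22724 genes tested, 2711 had an unadjusted p under 0.05 in this comparison. Id2, an inhibitor of E proteins, differed by -3.37 ± 0.74 (limma adjusted p = 0.0651) and Id1 by -1.38 ± 0.44 (adjusted p = 0.227). The arrays with Endoglin alone averaged 3.41 ± 0.16 (SD, n = 3) for Id2, and those with both proteins -3.48 ± 2.66. Cbfa2t3, a corepressor that joins the Tal1 complex, differed by 2.19 ± 0.60 (adjusted p = 0.140). Tcf4, an E protein, averaged -1.69 ± 0.64 with Endoglin alone and 1.24 ± 0.48 with both proteins (average Flk1 comparison, adjusted p = 0.431). Id2 differed by 0.14 ± 1.05 with Flk1 among Endoglin negative cells (adjusted p = 0.959) and fell by 6.88 ± 1.05 among Endoglin positive cells (adjusted p = 0.0278). The latter call was kept in 16 of 24 alternative fits (highest adjusted p = 0.132, for the mean of all probes, with a difference of -3.11). It was lost without Eng-Flk1+ replicate 1 (0.0567) or 3 (0.0539), Eng+Flk1+ replicate 1 (0.0907), or any one of the Eng+Flk1- arrays (0.0833 to 0.106). The difference between the classes was -7.02 ± 1.49 (interaction, adjusted p = 0.0995). In the average, Id2 was called under median scaling, normexp, array weights, the authors' deposited table and without Eng+Flk1+ replicate 2. Tcf4 and Rcor1 were called without Eng-Flk1- replicate 3, Cbfa2t3 without Eng+Flk1- replicate 2, and Cbfa2t3 and Rcor1 with the mean of all probes of a gene.

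Among 19 other regulators of blood and hemangioblast, 4 rose and 0 fell in the average Flk1 comparison, beside 0.986% of all genes called higher, and the median was 0.79 beside -0.09 for all genes. They were Etv2, an Ets factor at the top of this lineage (4.42 ± 0.36, limma adjusted p = 0.000481), Sox18 (5.94 ± 0.40, adjusted p = 0.000101), Mef2c (5.19 ± 0.47, adjusted p = 0.000710) and Fli1 (2.97 ± 0.44, adjusted p = 0.0117). Etv2 and Sox18 were also called with the slide as a block. Of 18 early vessel and blood surface genes, 6 rose and 0 fell (again beside 0.986% of all genes), with a median of 1.57: Kdr itself, the sorting marker, Cdh5, Tek, Tie1, Egfl7 and Plvap. The rise of Kdr was set by the sort. Kdr and Tek passed the filter on dim probes only through the Flk1 positive fractions, so their calls are described and not read as support. Tek, an angiopoietin receptor, differed by a fitted 7.22 ± 0.92 (adjusted p = 0.00431) and Tie1 by a fitted 6.03 ± 0.76 (adjusted p = 0.00422). These sizes are not exact, since Tek was well above background on 1 of 3 arrays in each Flk1 negative fraction and Tie1 on 1 of 3 Eng-Flk1- arrays. The same holds for Sox18 (1 of 3 Eng+Flk1- arrays) and Mef2c (2 of 3 Eng-Flk1- arrays). No call of the vessel list was left with the slide as a block.

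Of 18 red cell genes that Gata1 and Tal1 are known to activate, 4 fell in the average Flk1 comparison, beside 0.238% of all genes called lower, 0 rose and 14 were not called. The median was -0.58, and 6 of the 18 differences were positive. The embryonic globin Hbb-bh1 fell by 4.59 ± 0.43 (limma adjusted p = 0.000864), Hba-a1 fell by 6.14 ± 0.78 (adjusted p = 0.00432), Hbb-bt fell by 2.27 ± 0.28 (adjusted p = 0.00416) and Eraf, the alpha-globin chaperone, fell by 3.31 ± 0.55 (adjusted p = 0.0151). The average joins unlike differences: all 4 fell among Endoglin negative cells, and only Hbb-bh1 fell among Endoglin positive cells (-4.10 ± 0.61, adjusted p = 0.0235, called in 16 of 24 alternative fits and lost without any one of the Eng+Flk1+ or Eng+Flk1- arrays, 0.0689 to 0.0868, and with the slide block, 0.253). Hbb-bt differed by -4.06 ± 0.40 without Endoglin and by -0.47 ± 0.40 with it, and its interaction was called (3.58 ± 0.57, adjusted p = 0.0347, in 11 of 23 alternative fits, lost with the slide block, 0.495, and without Eng+Flk1+ replicate 1 or 2 or any one of the Eng-Flk1+ or Eng+Flk1- arrays). For Hba-a1 and Eraf the interaction was not called (adjusted p = 0.124 and 0.217). With Endoglin, among Flk1 negative cells, Hba-a1, Hbb-bt and Eraf fell too (-7.55, -3.57 and -4.42, adjusted p = 0.00937, 0.00273 and 0.0225). Their highest mean levels were in Eng-Flk1-, for example 8.38 ± 0.49 (SD, n = 3) for Hba-a1 against -1.84 ± 0.20 in Eng+Flk1+. Gata1 was lowest in that same fraction (-2.63 ± 0.29), as was Lyl1 (-3.06 ± 0.38). The mean levels of Tal1 (-0.32), Ldb1 (3.69), Gata2 (-3.16) and Hhex (-2.87) were lowest there too. Those of Lmo2, Runx1, Gfi1 and Gfi1b were not. The arrays of that fraction were the dimmest and scattered most. No call of this list was left with the slide as a block, and Eraf lost its call without Eng-Flk1+ replicate 3.

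**Figure D4:**
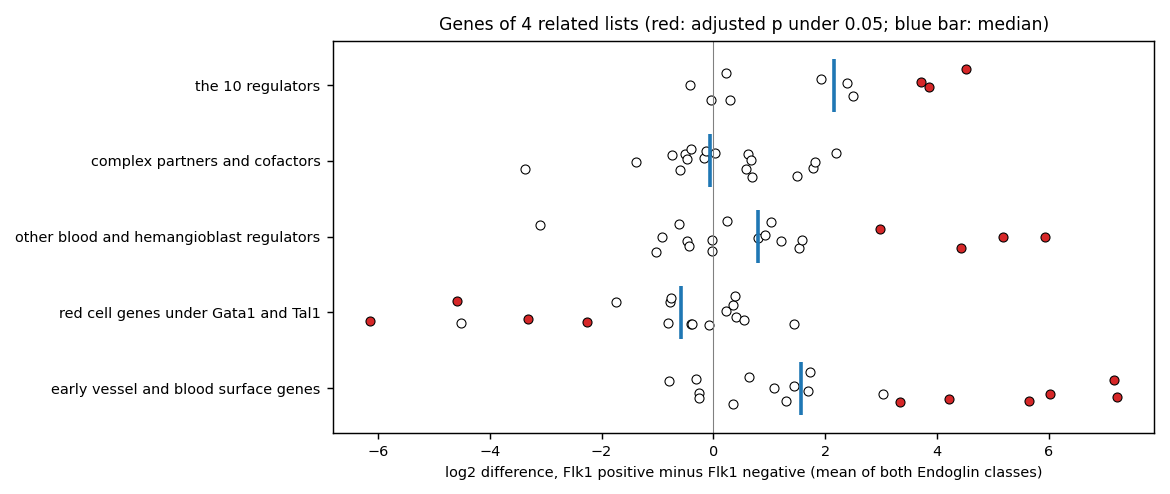
Average Flk1 difference (x axis, log2) of the 10 regulators and of the tested genes of 4 related lists (rows). Each point is a gene, filled red where the limma adjusted p is under 0.05, and the blue bar is the median of the row. Called genes lie to the right for regulators and vessel genes and to the left for red cell genes, of which 4 fell.

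At the Endoglin gate among Flk1 positive cells, no gene of the 4 lists was called. The lowest p of each list belonged to Erg, an Ets factor (2.61 ± 0.55, limma adjusted p = 0.248), Pecam1, a junction protein of endothelium (3.48 ± 0.76, adjusted p = 0.275), Id2 (-4.00 ± 1.05, adjusted p = 0.456) and Rhag, a red cell membrane protein (1.41 ± 0.44, adjusted p = 0.680). The next were Tie1 (4.74 ± 1.08, adjusted p = 0.314), Sox18 (2.11 ± 0.56, adjusted p = 0.466), Id1 (-1.16 ± 0.63) and Add2 (0.69 ± 0.47), the last pair at an adjusted p of 0.999. Thus Erg, Pecam1 and Tie1 had differences of the same sign as Lmo2 and Lyl1, none past the threshold.

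Markers of other cells were read beside these results. The 8 genes of primitive streak and nascent mesoderm had mean levels of -1.58 to -0.49 over all 12 arrays, with overlap between fractions. The 7 genes of maternal or definitive blood cells had mean levels of -1.28 to 0.19 in the fraction without either protein and of -1.82 to -0.44 elsewhere. They include Hbb-bt, also among the red cell genes that fell, at 5.46 to 6.05 in the fraction without either protein and 1.12 to 2.24 elsewhere. Afp, a visceral endoderm gene, was above background on no array of either Endoglin negative fraction, although that list was highest in one of them. The part of these cells in the levels of the 10 regulators was not tested.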

How the data were processed

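Levels were computed from the scanner files. Per the file headers, the arrays were read with Agilent Feature Extraction 10.5.1.1, which wrote a processed intensity per spot with background subtracted, and probe positions refer to mm8. Exon and intron annotation of that build was not used here. The table deposited by the authors for all samples holds intensity divided by the median of each array, and it served as an alternative. Per the file headers, other columns flag spots (a score of 0 or 1). After outlier spots were set aside, each log2 intensity was expressed relative to the 75th percentile of its array, and repeated spots gave 1 mean per probe. A gene is represented by its brighter probe, named through RefSeq (GRCm38.p6). The test took 22724 of 27548 genes, those well above background throughout 1 or more fractions.

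One limma model (version 3.58.1, R 4.3.3, with the data.table package, 1.17.8) of the 4 fractions gave 9 comparisons, with Benjamini-Hochberg adjustment over all genes. The model was tested on simulated data that had the same spread per gene in every fraction and no slide effect. That test cannot show how the unequal scatter of the fractions or the slides act here. A fold against a fraction below background is a lower bound, computed from the dimmest probe well above background on each array. Genes were named by rule: the 10 members, Eng and Kdr, up to 4 genes a list with the lowest p in the average Flk1 comparison and 2 at the Endoglin gate among Flk1 positive cells, and the 3 closest by correlation. Other called list genes were named after their values were seen. The members and lists were chosen with earlier results of these data known. Deviations from the fraction means had r of -0.09 to 0.13 between same-numbered samples (18 pairs, 1 over 0.1). Between other samples r was -0.10 to 0.08 (36 pairs). Samples were therefore not paired by number in the main model. Weak correlations cannot exclude a shared sort, and the labels do not say whether the numbers mark one. The number of arrays limits the precision. Planned were 14 alternatives, and with each array left out in turn as its own fit, a result had 23 to 25 alternative fits.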

Additional observations from a re-analysis of the deposited data

How the results depend on the processing

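Of the counts of members called, the average Flk1 count (3) came to 0 with the slide as a block, that among Endoglin negative cells (2) to 0 and that between both and neither protein (4) to 0. Median scaling and the authors' deposited table each gave 1 among Endoglin negative cells and 2 between both and neither. Between both and neither, normexp, array weights and the filter to genes above background on 12 arrays also gave 2. Among Endoglin positive cells the count of 0 became 2 under quantile normalization, normexp and the mean of all probes, 3 without the 3 Eng-Flk1- arrays and 4 with array weights. Between the single-marker fractions it became 2 under normexp, array weights and without the 3 Eng-Flk1- arrays. Leaving out each array in turn, the counts ran from 1 to 4 (Endoglin negative), 0 to 3 (Endoglin positive), 1 to 5 (both against neither), 0 to 2 (single markers), 2 to 5 (average Flk1), and 0 to 1 for Endoglin among Flk1 negative cells, for average Endoglin and for the interaction. In the last 5 of these, the counts above those of the full set came without Eng-Flk1- replicate 3. Signs turned for Ldb1 (-0.11 under median scaling, -0.10 with the authors' table, and -0.20 to 0.66 leaving out each array in turn, negative without Eng-Flk1- replicate 2), Runx1 (-0.038 and -0.029 under the same scalings) and Gata1 (-0.27 to 0.076 leaving out each array in turn, positive in 6 of 12 fits). The cause was not tested. Median scaling and the authors' table moved the median of all genes in the average Flk1 comparison from -0.09 to -0.41 and -0.40.

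With the replicate block, Gfi1 lost its call on average (4.52, adjusted p = 0.0546) and between both and neither protein (adjusted p = 0.0511), and no other member's call changed. Whether same-numbered samples shared a sort is not stated in the labels. All-gene counts moved from 435 to 199 (12-array filter), 241 (normexp), 165 (array weights), 663 (quantile) and 16 (slide block) among Endoglin negative cells, and on average from 278 to 136 (12-array filter) and 20 (slide block).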
